A study of Mus musculus with 12 samples.

Results

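The measurements described here were those of the miR-17-92 family in mouse hippocampus, taken from a TaqMan OpenArray profile of 12 samples. Members were all assays of the raw table without a passenger-strand mark numbered as miR-17, miR-18, miR-19, miR-20, miR-92, miR-93 or miR-106, with any letter or arm. This gave 13 of the 619 miRNA assays in the table, and 10 of the 13 were among the 335 assays with a Ct below 28 in all samples. The study compared the hippocampus of wt mice with that of P2rx7-/- mice, all of strain C57BL/6 per the labels. The methods name the P2rx7-/- line as B6N and give no substrain for the wt mice, which the paper's discussion calls littermates. Whether both were of the same substrain is not stated outright. The P2rx7-/- mice lack the P2X7 receptor through a constitutive deletion of exon 2 of P2rx7. The study asked how the loss of this ATP-gated ion channel alters hippocampal miRNAs with and without status epilepticus (SE). The mice were males aged 8 weeks per the labels and up to 12 weeks per the methods. The wt control and P2rx7-/- control groups received vehicle in the amygdala, and the wt post-SE and P2rx7-/- post-SE groups received 0.3 μg kainic acid (KA), a glutamate receptor agonist that triggers SE from this site. All mice were given the anticonvulsant lorazepam at 6 mg/kg, 40 min after the injection, so the controls carried this drug too. There were 3 samples in each group. Hippocampi of the injected side were collected 8 h after the injection, and RNA of 2 mice was combined in each sample. Spread between samples is therefore spread between pools. Pools and bulk tissue do not resolve cell types, so that fewer cells of a type and less miRNA per cell cannot be told apart.

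The miR-17-92 cluster is transcribed as a single primary transcript that is cut into several hairpins, and mammals carry the paralogous clusters miR-106a-363 and miR-106b-25 elsewhere in the genome. Each hairpin yields a guide strand, which is loaded into the silencing complex, and a less abundant passenger strand. A guide recognizes its targets mainly through the seed, bases 2 to 8 from its 5′ end, and the family is best known for promoting proliferation and survival, with targets that include cell cycle inhibitors and the pro-apoptotic factor Bim. In the brain the clusters are known from neural progenitors and axon growth.

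The mature sequences are given because an assay has to tell apart miRNAs that differ by as little as 1 base, and because the seed groups the members. They are mouse sequences of RefSeq on GRCm38.p6, shown 5′ to 3′ with the seed in capitals. All 13 assays matched a mature sequence by name. The human and rat prefixes of an assay name give the species for which it was designed, and the matched mouse sequence is shown here. The first set shares the seed AAAGUGC and holds 6 guides drawn from all 3 clusters.
miR-17-5p: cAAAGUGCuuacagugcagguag
miR-20a-5p: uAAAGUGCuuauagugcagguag
miR-106a-5p: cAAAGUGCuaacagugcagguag
miR-20b-5p: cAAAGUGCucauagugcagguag
miR-106b-5p: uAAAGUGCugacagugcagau
miR-93-5p: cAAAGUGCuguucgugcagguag
The second set is the remaining guides, with miR-25, which is outside the rule but has the seed of miR-92a and shares a transcript with miR-93.
miR-18a-5p: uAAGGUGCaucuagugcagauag
miR-19a-3p: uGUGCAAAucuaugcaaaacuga
miR-19b-3p: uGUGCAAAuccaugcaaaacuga
miR-92a-3p: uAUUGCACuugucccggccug
miR-25-3p: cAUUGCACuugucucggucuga
The third set is the 2 members from the opposite arms of their hairpins.
miR-17-3p: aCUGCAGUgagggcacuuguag
miR-20b-3p: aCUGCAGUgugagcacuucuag

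With positions counted from the 5′ end, miR-106a differs from miR-17 by U10A alone, and miR-19b differs from miR-19a by U11C alone. miR-20a differs from miR-17 by C1U and C12U, and miR-20b differs from miR-17 by U10C and C12U. Of the 6 guides with this seed, 5 also share their last 10 bases (miR-17, miR-20a, miR-106a, miR-20b and miR-93). Such pairs can share signal between assays, and cross-detection was not tested here. The miR-17-92 guides lie on the plus strand of chromosome 14, in the order miR-17 (chr14:115043684-115043706), miR-18a (chr14:115043867-115043889), miR-19a (chr14:115044048-115044070), miR-20a (chr14:115044183-115044205), miR-19b (chr14:115044358-115044380) and miR-92a (chr14:115044476-115044496). miR-106a (chrX:52742541-52742563) and miR-20b (chrX:52742159-52742181) lie on the minus strand of chromosome X, where second copies of miR-19b (chrX:52741991-52742013) and miR-92a (chrX:52741854-52741874) follow. An assay for miR-19b or miR-92a therefore reads both clusters. miR-106b (chr5:138165787-138165807) and miR-93 (chr5:138165574-138165596) lie on the minus strand of chromosome 5, with miR-25 (chr5:138165332-138165353), inside the annotated span of Mcm7, which encodes a subunit of the replicative helicase. The gene table used here does not separate exons from introns.

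A Ct is the cycle at which the PCR signal crosses a threshold, so a lower Ct means more template. Levels below are minus the Ct after subtraction of the sample's mean Ct over the 335 assays, on a log2 scale in which 1 unit is 1 cycle. An FC is 2 raised to the difference from the mean level of the reference group, averaged over 3 samples and given with its SD. Between 470 and 538 of the 619 assays had a Ct in a sample, with the fewest in wt control replicate 1, and the mean Ct over the 335 assays was 18.2 to 19.3. The wt control replicate 1 stood apart for some assays, among them miR-106a, miR-19b and hsa-miR-20b, and values without it are given beside them. Of the markers of the tissue, the neuronal miR-128a was among the higher assays in all groups (mean level 4.50 in wt control and 4.95 in P2rx7-/- post-SE), whereas miR-9 had a Ct in 4 samples only.

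The members spanned a wide range of levels. Of the 10 assays with a Ct in all samples, the highest were miR-17 and miR-20a, with mean levels of 4.47 and 4.28 over the 12 samples, at ranks 34 and 39 of 335. They were followed by miR-106a (3.80), miR-92a, whose assay is named hsa-miR-92 (2.70), miR-106b (2.33) and miR-93 (2.29). miR-19a had a mean level of 0.60, the 2 assays of miR-20b −0.57 and −0.72, and miR-18a −4.23, at rank 296. Within samples miR-17 exceeded miR-18a by 8.70 ± 0.54 cycles (SD, n = 12), although both come from the same transcript. Neighbours in this order often did not differ beyond their spread. miR-17 exceeded miR-20a in 8 of 12 samples (mean difference 0.19 ± 0.28), miR-92a exceeded miR-106b in 6 of 12, and miR-93 exceeded miR-19a in all 12 (1.69 ± 0.32). These differences are between assays, each with an amplification efficiency of its own, and not between numbers of molecules.

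**Figure D1:**
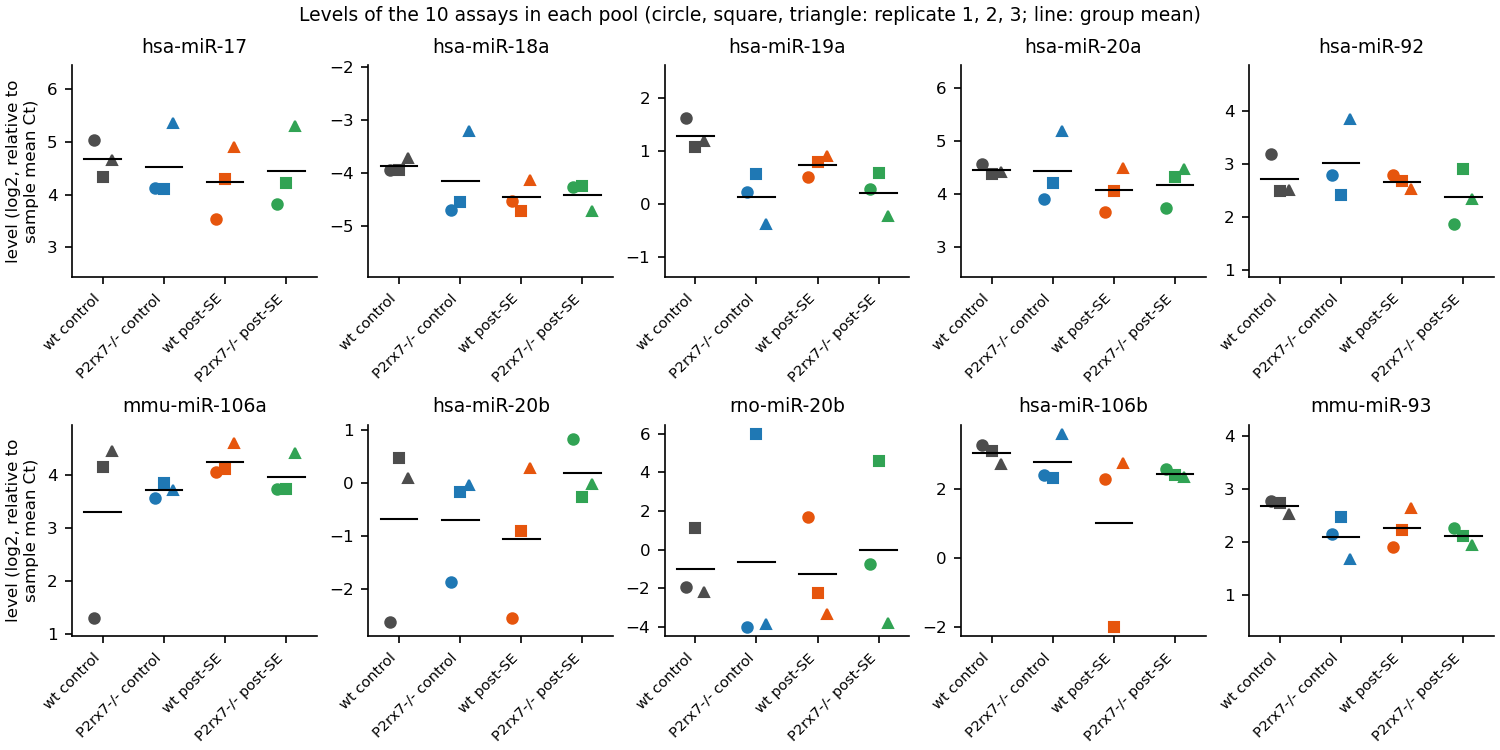
Level of each of the 10 assays with a Ct in all samples (y axis, log2, relative to the sample's mean Ct) in the 4 groups (x axis). Each symbol is a pool of 2 hippocampi and each line a group mean, and all panels span at least 4 log2 units. miR-19a lies lower in every other group than in wt control, and wt post-SE overlaps with both P2rx7-/- groups. Single samples stand far from their group for miR-106a, miR-106b and both miR-20b assays.

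The first question was which members differed from wt control in each of the other groups. An average FC above 1.5 or below 0.6 was the criterion of the study for a changed miRNA. By it 2 of 10 members differed in P2rx7-/- control, rno-miR-20b above and miR-19a below, where 21.2% of the 335 assays were above and 15.5% below. In wt post-SE 3 members differed, miR-106a and rno-miR-20b above and miR-106b below (background 23.3% and 12.5%). In P2rx7-/- post-SE 4 members differed, hsa-miR-20b, rno-miR-20b and miR-106a above and miR-19a below (background 20.6% and 13.1%). Of 10 assays, 1 to 3 above and 1 below is near the share of all assays in each of these comparisons. In P2rx7-/- post-SE against wt post-SE the 3 members above were miR-106b and both miR-20b assays and 0 were below (background 17.0% and 4.48%), and in P2rx7-/- post-SE against P2rx7-/- control the 2 above were the miR-20b assays and 0 were below (17.9% and 7.16%).

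The criterion does not weigh the spread between samples. With limma over all 335 assays, 0 of 10 members reached an adjusted p below 0.05 in any of the 5 comparisons, in the averages over genotype or treatment, or in the interaction, as did 0 of 335 assays (0%). At an unadjusted p below 0.05 there was 1 member in P2rx7-/- control against wt control, 1 in P2rx7-/- post-SE against wt control, 1 in the average over treatments, and 0 in the others, and it was miR-19a each time. Of all 335 assays 20, 12 and 16 were below 0.05 by limma in the same order, and 4 to 13 in the others. The median log2 difference of the members against wt control was −0.08 for P2rx7-/- control (all assays −0.02), −0.40 for wt post-SE (all assays −0.09) and −0.31 for P2rx7-/- post-SE (all assays −0.09). The 3 comparisons share the wt control samples.

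Another description, which does not weigh the size of a difference, is whether all 3 samples of a group lay on the same side of all 3 of the reference. In P2rx7-/- control this held for 2 members, miR-19a and miR-93, both lower, where 10.4% of all assays were lower and 3.58% higher. In wt post-SE it held for miR-18a and miR-19a, both lower (background 5.07% lower and 5.97% higher). In P2rx7-/- post-SE it held for 4 members, miR-18a, miR-19a, miR-93 and miR-106b, all lower (7.46% lower and 2.69% higher). Of these members only miR-19a also met the FC criterion, in both P2rx7-/- groups. It held for 0 members in P2rx7-/- post-SE against wt post-SE (3.58% lower and 2.09% higher) and against P2rx7-/- control (2.69% lower and 3.88% higher). The two-sided exact permutation test gives p = 0.1 for each such member, the smallest p that 3 against 3 samples allow.

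**Figure D2:**
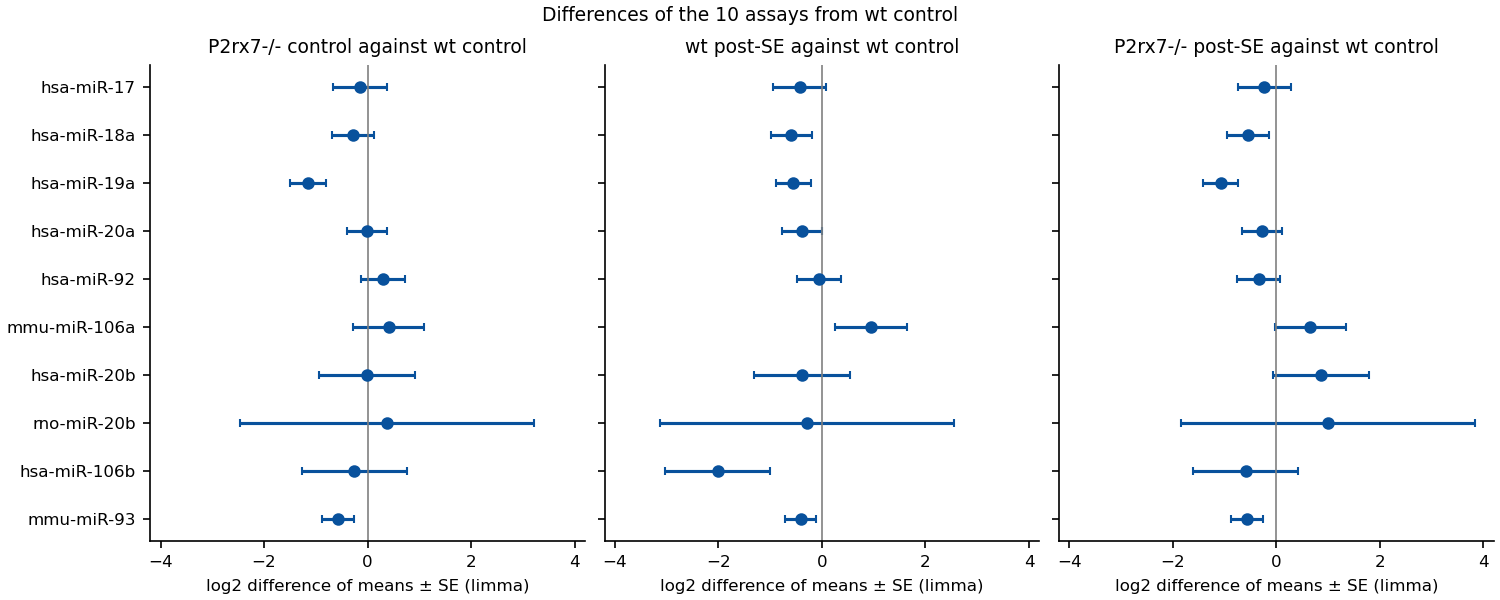
Log2 difference of group means from wt control (x axis, with the SE from limma) for the 10 assays (y axis), with a panel for each of the other 3 groups. miR-19a has −1.15 and −1.08 in the 2 P2rx7-/- groups and −0.55 in wt post-SE, each with an SE of 0.34. The widest errors are those of rno-miR-20b, with an SE of 2.84.

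Within the miR-17-92 cluster, miR-19a was the only guide with a Ct in all samples that met the FC criterion against wt control. It belongs to the miR-19 pair, known as the main oncogenic component of the cluster. Its levels were 1.62, 1.07 and 1.19 in wt control, 0.22, 0.58 and −0.38 in P2rx7-/- control, 0.51, 0.80 and 0.92 in wt post-SE and 0.29, 0.59 and −0.23 in P2rx7-/- post-SE. All samples of the other 3 groups were below all wt control samples. The wt post-SE samples lay between, and overlapped with both P2rx7-/- groups. The average FC against wt control was 0.466 ± 0.148 for P2rx7-/- control and 0.487 ± 0.134 for P2rx7-/- post-SE, and these stayed below 0.6 with any single sample left out. For wt post-SE it was 0.687 ± 0.0974. The log2 difference was −1.15 (SE 0.34) in P2rx7-/- control and −1.08 (SE 0.34) in P2rx7-/- post-SE, with limma adjusted p = 0.616 and 0.712. Averaged over treatments, miR-19a was lower in P2rx7-/- than in wt by 0.84 on the log2 scale (−0.84, SE 0.24, a ratio of 0.559). The exact permutation test within treatments gave p = 0.01, which became 0.335 after Benjamini-Hochberg adjustment over 335 assays, and limma gave an adjusted p = 0.672. The difference between wt post-SE and P2rx7-/- post-SE was −0.53 (SE 0.34, adjusted p = 0.999). For the interaction of genotype and treatment, limma gave 0.63 (SE 0.49) with an adjusted p = 0.851.

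miR-19a was also set against miR-17 of the same transcript, since the difference in Ct between 2 assays of a sample is free of any normalizer. Ct of miR-17 minus Ct of miR-19a was −3.42, −3.25 and −3.46 cycles in wt control and −3.91, −3.52 and −5.73 in P2rx7-/- control. It was −3.02, −3.49 and −3.98 in wt post-SE and −3.52, −3.63 and −5.52 in P2rx7-/- post-SE. Both P2rx7-/- groups were thus below all wt control samples, by a margin that was small except in replicate 3 of each. Replicates 2 and 3 of wt post-SE were below all wt control samples too. P2rx7-/- post-SE and wt post-SE overlapped, with a difference of −0.73 cycles (exact permutation test, p = 0.4). The change averaged over treatments was −0.87 cycles (two-sided exact permutation test, p = 0.07). It was −0.53 without P2rx7-/- control replicate 3 and −0.54 without P2rx7-/- post-SE replicate 3.

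miR-17 and miR-20a, both of the AAAGUGC seed, overlapped between all groups. Levels of miR-17 were 5.04, 4.33 and 4.65 in wt control, 4.13, 4.10 and 5.35 in P2rx7-/- control, 3.53, 4.29 and 4.90 in wt post-SE and 3.81, 4.21 and 5.29 in P2rx7-/- post-SE. The highest samples were replicate 3 of the 2 P2rx7-/- groups, and the average FCs against wt control were 0.987 ± 0.534, 0.797 ± 0.359 and 0.938 ± 0.524. miR-20a ranged from 3.66 to 5.20, with FCs of 1.07 ± 0.530, 0.786 ± 0.222 and 0.844 ± 0.214. Ct of miR-17 minus Ct of miR-20a had group means of −0.22, −0.09, −0.17 and −0.27 cycles, with SDs of 0.17 to 0.48. In P2rx7-/- control it differed from wt control by 0.13 cycles (exact permutation test, p = 0.4).

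miR-18a, whose seed differs from that of miR-17 by the substitution A4G, was the member with the lowest level. It measured −3.94, −3.94 and −3.72 in wt control, −4.70, −4.55 and −3.21 in P2rx7-/- control, −4.54, −4.72 and −4.13 in wt post-SE and −4.28, −4.25 and −4.73 in P2rx7-/- post-SE. The post-SE samples of both genotypes were below the wt control samples, and P2rx7-/- control overlapped with wt control through replicate 3. The log2 difference from wt control was −0.59 (SE 0.40, limma adjusted p = 0.666) in wt post-SE and −0.55 (SE 0.40, adjusted p = 0.712) in P2rx7-/- post-SE. Averaged over genotypes, post-SE against control gave −0.43 (SE 0.28), with an exact permutation p = 0.135 and 0.897 after adjustment over all assays. At Ct values of 22.0 to 23.9 this was the member nearest to the Ct limit of 28.

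miR-92a, which closes the cluster and is also made from the X chromosome, ranged from 1.88 to 3.85, with its highest value in P2rx7-/- control replicate 3. The FCs against wt control were 1.35 ± 0.739 for P2rx7-/- control, 0.821 ± 0.295 for P2rx7-/- post-SE and 0.966 ± 0.0860 for wt post-SE, and all groups overlapped. Ct of miR-17 minus Ct of miR-92a was −1.95 ± 0.17 cycles in wt control and −1.51 ± 0.17 in P2rx7-/- control, a difference of 0.44 cycles without overlap (exact permutation test, p = 0.1). Averaged over treatments it was −0.02 (exact permutation test, p = 0.945).

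The 3 members without a Ct in every sample were examined separately. miR-19b, which has the seed of miR-19a, had a Ct in 11 samples and none in P2rx7-/- control replicate 1. Its levels were 3.94, 6.10 and 6.41 in wt control, 6.15 and 6.10 in P2rx7-/- control, 5.88, 6.24 and 6.72 in wt post-SE and 7.33, 5.95 and 5.77 in P2rx7-/- post-SE. wt control replicate 1 was far below the other samples, which lay between 5.77 and 7.33. In the 11 samples miR-19b exceeded miR-19a by 5.42 ± 1.19 cycles. With missing values left out of the fit, P2rx7-/- against wt averaged over treatments gave 0.35 (SE 0.51, limma adjusted p = 0.971) for miR-19b, and the difference of the group means was −0.03 without wt control replicate 1. Whether the 2 assays differ in their response to genotype was not tested.

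miR-17-3p, from the opposite arm of the miR-17 hairpin, had a Ct in 11 samples and none in P2rx7-/- control replicate 3. Its levels were −0.71, −0.60 and −1.38 in wt control, −3.92 and −1.48 in P2rx7-/- control, −1.44, −1.07 and −1.43 in wt post-SE and −2.24, −1.67 and −3.90 in P2rx7-/- post-SE. The 5 P2rx7-/- samples, with a highest level of −1.48, were all below the 6 wt samples, with a lowest level of −1.44, a gap that was small beside the spread within the P2rx7-/- groups. This assay was singled out after its values were seen. The fit with missing values left out gave −1.55 (SE 0.54, limma adjusted p = 0.955) for P2rx7-/- against wt, and the difference of the group means was −0.94 without P2rx7-/- control replicate 1. The guide strand of the same hairpin gave 0.03 (SE 0.37, adjusted p = 0.991). A further assay marked as the passenger strand of miR-17, mmu-miR-17#, had no Ct in wt control replicate 1. It went the other way, with 0.32 (SE 0.49, limma adjusted p = 0.975) for P2rx7-/- against wt. A lower level in P2rx7-/- was thus seen with the rat assay only, and the difference between the assays was not tested. miR-20b-3p had a Ct in 2 samples only, 20.3 in P2rx7-/- control replicate 1 and 10.5 in P2rx7-/- post-SE replicate 1, and no comparison was made for it.

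In the miR-106b-25 cluster, whose members are transcribed with the replication gene Mcm7, miR-93 was the steadiest member. Its SD within groups was 0.29, at the 4.48 percentile of all assays. Levels were 2.77, 2.73 and 2.53 in wt control, 2.16, 2.48 and 1.67 in P2rx7-/- control, 1.91, 2.23 and 2.65 in wt post-SE and 2.27, 2.12 and 1.95 in P2rx7-/- post-SE. The P2rx7-/- samples of both treatments were below all wt control samples, and wt post-SE overlapped with all groups. The FCs against wt control were 0.690 ± 0.187, 0.767 ± 0.199 and 0.679 ± 0.0746, none of them below 0.6. Without P2rx7-/- control replicate 2 the first was 0.598. Averaged over treatments the genotype difference was −0.36 (SE 0.22, limma adjusted p = 0.930), with an exact permutation p = 0.065, or 0.751 after adjustment over all assays.

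miR-106b, the other member of this cluster, measured 3.30, 3.10 and 2.74 in wt control, 2.42, 2.33 and 3.61 in P2rx7-/- control, 2.31, −2.00 and 2.77 in wt post-SE and 2.59, 2.41 and 2.37 in P2rx7-/- post-SE. The wt post-SE replicate 2 was more than 4 log2 units below every other sample. It alone carried both FC calls of this assay. The average FC of wt post-SE against wt control was 0.485 ± 0.410 and became 0.713 without this sample, and that of P2rx7-/- post-SE against wt post-SE was 2.70 ± 0.223 and became 0.945. The log2 difference of P2rx7-/- post-SE from wt post-SE changed from 1.43 (SE 1.02) to −0.07. miR-93 in this sample was 2.23, within the range of its group. P2rx7-/- post-SE was below all wt control samples without meeting the FC criterion (FC 0.665 ± 0.0551, log2 difference −0.59, SE 1.02, adjusted p = 0.880).

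In the miR-106a-363 cluster of the X chromosome, the FC calls of miR-106a rested on wt control replicate 1. miR-106a, which differs from miR-17 by a single base, measured 1.30, 4.15 and 4.44 in wt control, 3.57, 3.85 and 3.71 in P2rx7-/- control, 4.04, 4.11 and 4.60 in wt post-SE and 3.73, 3.73 and 4.41 in P2rx7-/- post-SE. The lowest sample was wt control replicate 1, and the other 11 samples lay between 3.57 and 4.60. The average FC was 1.96 ± 0.431 for wt post-SE and 1.62 ± 0.466 for P2rx7-/- post-SE, and became 0.982 and 0.809 without this sample. The latter also fell below the criterion, to 1.35, without P2rx7-/- post-SE replicate 3. For miR-17, wt control replicate 1 was the highest of its group.

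miR-20b was read by 2 assays, named for the human and the rat miRNA. Both names match the same mouse mature sequence, shown above. The hsa-miR-20b levels were −2.62, 0.46 and 0.09 in wt control, −1.87, −0.18 and −0.04 in P2rx7-/- control, −2.56, −0.92 and 0.27 in wt post-SE and 0.82, −0.26 and −0.03 in P2rx7-/- post-SE. The 3 lowest values were the first replicates of 3 groups, and the first replicate of the fourth group was the highest. The rno-miR-20b levels were −1.93, 1.14 and −2.19 in wt control, −3.99, 5.98 and −3.84 in P2rx7-/- control, 1.71, −2.24 and −3.32 in wt post-SE and −0.75, 4.60 and −3.82 in P2rx7-/- post-SE. They spanned 9.97 log2 units, and the SD within groups was 3.91, at the 99.4 percentile of all assays, whereas that of hsa-miR-20b was 1.25, at the 80.0 percentile.

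The 2 assays disagreed on which samples were high. Ct of rno-miR-20b minus Ct of hsa-miR-20b ranged from −6.16 cycles in P2rx7-/- control replicate 2 to 3.80 in P2rx7-/- control replicate 3, with a mean of 0.15 and an SD of 3.52. The assays were more than 1 cycle apart in 10 samples and more than 2 cycles apart in 8. Over the 12 samples Pearson's r of their levels was 0.05 (0.0475, permutation p = 0.887) and Spearman's rho was −0.02 (permutation p = 0.955). Without the 2 samples farthest from the median of hsa-miR-20b, r was 0.20 (permutation p = 0.588). The SD of the difference was 0.35 to 2.04 (median 0.76) in the other 14 pairs of assays with the same miRNA name, so that 0 of 14 exceeded miR-20b. Correlation was also low in those pairs, with a median r of 0.13.

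The FC calls of both assays rested on single samples. Against wt control, rno-miR-20b had an average FC of 42.1 ± 72.7 for P2rx7-/- control, 16.6 ± 27.6 for P2rx7-/- post-SE and 2.38 ± 3.59 for wt post-SE. Each was carried by a single sample of the group. Without P2rx7-/- control replicate 2, P2rx7-/- post-SE replicate 2 and wt post-SE replicate 1 the averages were 0.132, 0.660 and 0.310. hsa-miR-20b had average FCs of 1.14 ± 0.615, 1.92 ± 0.809 and 1.02 ± 0.849 in the same groups, which became 0.586, 0.985 and 0.524 without wt control replicate 1 and 1.70, 2.86 and 1.52 without wt control replicate 2. Against wt post-SE its FC in P2rx7-/- post-SE was 2.50 ± 1.05 and became 1.49 without wt post-SE replicate 1. Against P2rx7-/- control it was 1.94 and became 1.29 without P2rx7-/- control replicate 1. The sign of the log2 difference of rno-miR-20b in wt post-SE (−0.29, SE 2.84) was opposite to that of its average FC.

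**Figure D3:**
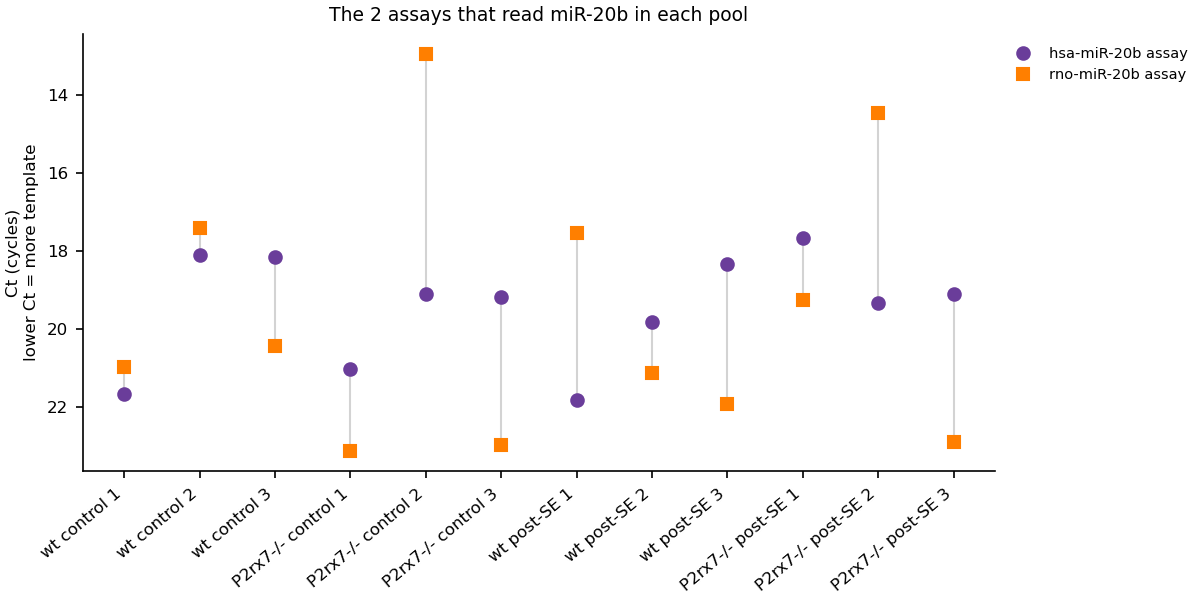
Ct of the 2 assays that read miR-20b (y axis, cycles, reversed so that more template is higher) in each of the 12 samples (x axis, group and replicate), with a grey line joining the assays of a sample. The rat assay is higher in 5 samples and lower in 7, and the difference in Ct (rat minus human assay) runs from −6.16 to 3.80 cycles.

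How the members varied together was examined over the 12 samples, which share the normalizer within a sample, as a description. The pairs described one by one were singled out after their values were seen. The median Pearson's r over the 45 pairs of members was 0.05, with 24 pairs above 0, against a median of 0.00 (0.00231) over all 55945 pairs of assays. The members did not move as a block. miR-17 and miR-20a had r = 0.891 (Spearman's rho 0.944), which was 0.898 for deviations from group means and 0.907 without the 2 samples farthest from the median of miR-17. miR-18a and miR-92a correlated less closely with miR-17, at 0.486 (rho 0.392) and 0.452 (rho 0.266). Without the same 2 samples these r were 0.603 and 0.368. For miR-18a and miR-20a r was 0.729, and 0.442 without P2rx7-/- control replicate 3 and wt control replicate 3.

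miR-19a did not follow the other products of its own transcript. Its r with miR-17 was −0.109 over all samples and 0.806 without replicate 3 of P2rx7-/- control and of P2rx7-/- post-SE, the 2 samples with the highest miR-17. In P2rx7-/- control replicate 3, 5 of the 10 members reached their highest level of all samples (miR-17, miR-18a, miR-20a, miR-92a and miR-106b) and 2 their lowest (miR-19a and miR-93). miR-25 was also at its lowest there. miR-19a varied with miR-93 and miR-25 of the chromosome 5 cluster, with r = 0.868 (rho 0.839) and 0.912 (rho 0.832), whereas r with miR-106b of that cluster was −0.0591. The first 2 were 0.756 and 0.846 without wt control replicate 1 and P2rx7-/- control replicate 3, and 0.774 and 0.815 for deviations from group means. miR-93 and miR-25, of 1 transcript, had r = 0.898, and miR-93 and miR-106b, of that same transcript, 0.0873. The 3 other assays most like the median profile of the members were rno-miR-381 (r = 0.815), hsa-miR-551b (0.811) and hsa-miR-27b (0.801), over 12 samples. They were picked as the highest r and not tested. The other assay of that name, hsa-miR-381, had r = −0.464 with rno-miR-381.

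**Figure D4:**
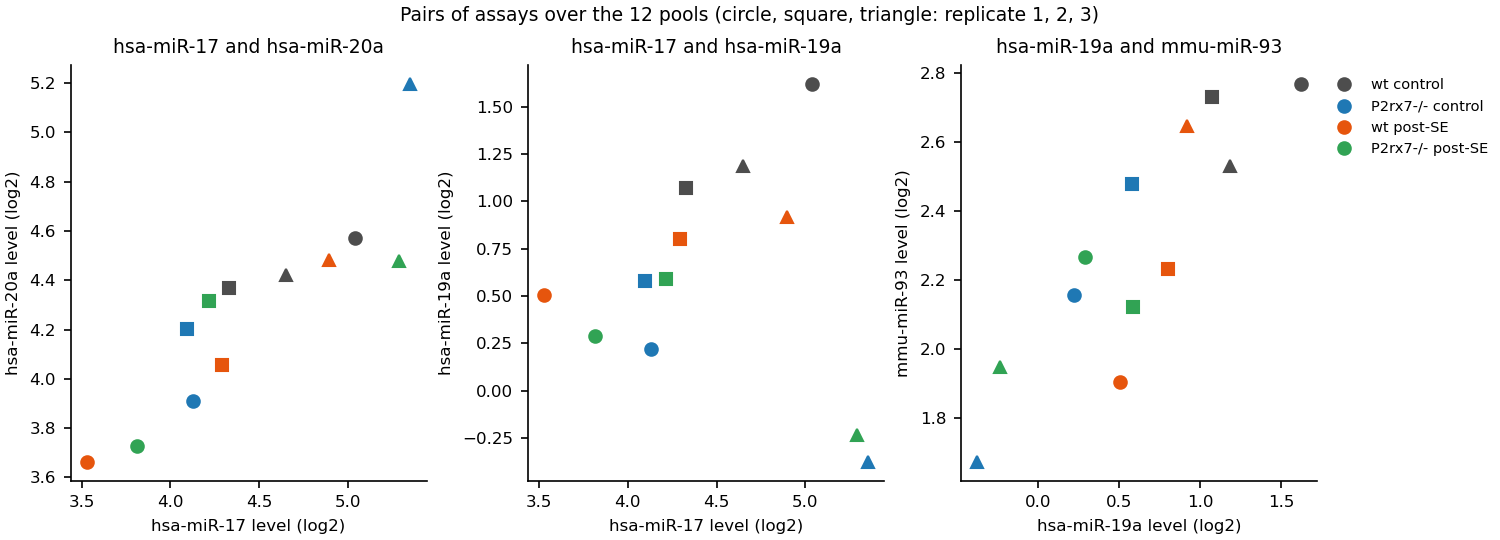
Levels (log2) of miR-17 and miR-20a, miR-17 and miR-19a, and miR-19a and miR-93 in the 12 samples, coloured by group. miR-17 and miR-20a rise together, whereas replicate 3 of the 2 P2rx7-/- groups combines the highest miR-17 with the lowest miR-19a.

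**Figure D5:**
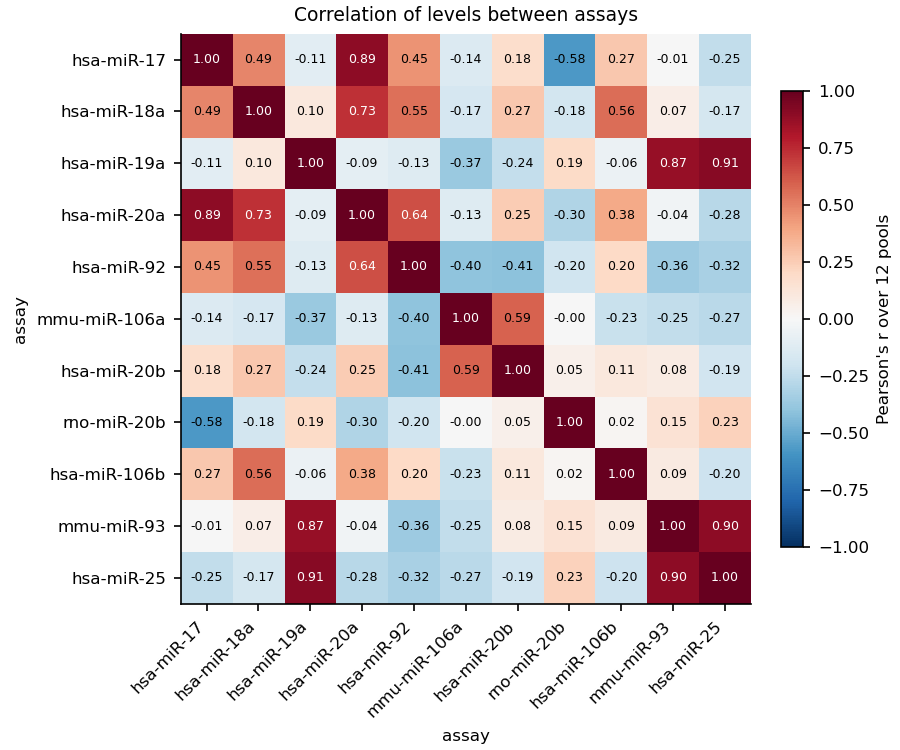
Pearson's r over 12 samples between the levels of the 10 members and of miR-25 (both axes, ordered by cluster, with r printed in each cell). miR-17, miR-18a, miR-20a and miR-92a form a block with r of 0.45 to 0.89, and miR-19a, miR-93 and miR-25 form another with r of 0.87 to 0.91. Each assay of the first block is highest, and each of the second lowest, in P2rx7-/- control replicate 3. Extremes in this sample were not counted over all assays.

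Other products of the 3 clusters outside the rule were 9 assays, of which 5 had a Ct in all samples (miR-25 and the passenger strands miR-106b#, miR-93#, miR-18a# and miR-20a#). By the FC criterion 0 of 5 were above wt control in any group. Of all 335 assays 21.2% were above and 15.5% below in P2rx7-/- control. The shares were 20.6% and 13.1% in P2rx7-/- post-SE, and 23.3% and 12.5% in wt post-SE. The counts of relatives were not tested against these shares. The relatives below wt control were miR-20a# in all 3 groups and miR-25 in P2rx7-/- post-SE (FC 0.587 ± 0.0867). The FCs of miR-20a# were 0.510 ± 0.0826 for P2rx7-/- control, 0.596 ± 0.110 for P2rx7-/- post-SE and 0.498 ± 0.147 for wt post-SE. The calls of miR-20a# rested on wt control replicate 1, its highest sample, and without it the FCs were 0.787, 0.919 and 0.769 in the same order. That of miR-25 was 0.623 without wt control replicate 1, 0.626 without wt control replicate 2 and 0.637 without P2rx7-/- post-SE replicate 3. miR-93# was above P2rx7-/- control in P2rx7-/- post-SE (FC 1.76 ± 0.828, and 1.28 without P2rx7-/- post-SE replicate 3, background 17.9%). Its samples there did not overlap (background 3.88% higher). Lower without overlap were miR-106b# and miR-20a# in P2rx7-/- control against wt control (background 10.4%). The same held for miR-25 in P2rx7-/- post-SE against wt control (7.46%) and against wt post-SE (3.58%). miR-25 was lower in P2rx7-/- than in wt by 0.63 when averaged over treatments (−0.63, SE 0.25, limma adjusted p = 0.930), with an exact permutation p = 0.01 that was 0.335 after adjustment over all assays. With limma, 0 of 5 passed in any comparison, as did 0 of 335 assays (0%). The guide miR-20a had an FC of 1.07 in P2rx7-/- control and overlapped with wt control there.

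The marker assays of cell types were as follows, with no test made on their sums. Of 6 oligodendrocyte assays 4 had a Ct in all samples, and their summed level was 2.67 to 3.20 in wt control, 1.86 to 2.56 in P2rx7-/- control, 2.28 to 3.05 in wt post-SE and 2.25 to 4.28 in the P2rx7-/- post-SE group. Within that list miR-338-3p was lower in P2rx7-/- by 0.98 (−0.98) and miR-219 higher by 0.62, averaged over treatments. Of 3 red blood cell assays 2 had a Ct in all samples, with summed levels of 2.41 to 4.62, 2.72 to 4.15, 2.12 to 2.36 and 2.39 to 3.23 in the same order of groups. The summed level of the 2 of 5 neuronal assays with a Ct in all samples was 4.40 to 5.60, 5.29 to 5.75, 5.31 to 6.18 and 5.32 to 6.26. White blood cell assays (4 of 5) summed to 5.004 to 7.59, 5.88 to 7.25, 6.87 to 7.99 and 7.01 to 7.88, and the single vessel assay of 4 with a Ct in all samples, miR-145, was 1.94 to 5.13, 4.79 to 5.49, 4.89 to 7.94 and 4.73 to 5.97. The part of these in the levels of the members was not tested. RNA degradation was not assessed in the study.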

How the data were processed

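The members, gene lists and tests were chosen with earlier results of these data known, including the members' Ct values in a supplementary table, so no choice was blind to the data. For the 12 samples the authors deposited Ct values (cycle thresholds, a score with no normalization). The deposited fold changes, ratios to wt control replicate 1 in which an empty Ct was entered as 0, were used only as an alternative. The software that called the Ct values is not given in the sources used here. The number of per-sample columns not assigned was 0. Groups and replicate numbers came from the labels. From the Ct values, assays with a Ct below 28 in all samples were kept (335), each sample was normalized to its mean Ct over them, and FCs and levels were computed as in the report. limma 3.58.1 (R 4.3.3) was fitted to 4 groups over all 335 assays, with Benjamini-Hochberg adjustment over all of them, and was tested on simulated data. Exact permutation tests, two-sided, used numpy 2.4.6, with adjustment by statsmodels 0.14.6. Correlations used numpy and pandas 2.3.3. Those between the miR-20b assays used scipy 1.17.1, with 100000 permutations in numpy. Every member was named, relatives where they passed a criterion or a result turned on them, and the 3 assays nearest to the members' median profile. FCs without a sample keep the normalizer of all samples. A p-value sets a difference or a correlation against the spread between pools. Alternatives were other normalizers (mean of all detected assays, median, snoRNA135 and snoRNA202), the deposited fold changes, a Ct limit of 26, a Ct in at least 2 samples per group, the geometric mean, the two-group test of the methods, robust variance, the replicate number as a block, and each sample left out. Alternatives were run for each of the 10 members in all 8 comparisons.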

Additional observations from a re-analysis of the deposited data

How the results depend on the processing

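The count of members by limma was 0 under all 20 alternatives in each of the 8 comparisons, including the fit with the replicate block, in which it was 0. The lowest adjusted p of a member over them was 0.367. Deviations from group means of samples with the same replicate number had r of −0.227 to 0.277, above 0.1 in 4 of 18 pairs, so the numbers were not treated as pairs. Replicate 3 of the 3 groups other than wt control held 3 of these 4 (0.277, 0.271 and 0.251), and the miR-17 and miR-19a pattern rests on replicate 3 of both P2rx7-/- groups. The counts by the FC criterion depended more on the settings. In P2rx7-/- control against wt control the count was 2 of 10 members, where 36.7% of all 335 assays were called in either direction. With a Ct in at least 2 samples per group it was 4 of 12, with miR-19b and miR-17-3p added (40.8% of 478 assays). It was 1, miR-19a, with the geometric mean (36.4% of all assays) and with the two-group test of the methods (2.09%). With that test it was 0 in wt post-SE (1.79% of all assays) and 1, miR-19a, in P2rx7-/- post-SE against wt control (2.99%). It was 0 in P2rx7-/- post-SE against wt post-SE (0.597%) and against P2rx7-/- control (0.896%). Leaving out 1 sample, which can bring miR-19b or miR-17-3p into the filter, gave counts of 2 to 5 in each of the 3 comparisons with wt control, 2 to 4 in P2rx7-/- post-SE against wt post-SE and 1 to 3 against P2rx7-/- control. Against wt control the share of all assays was then 25.9% to 44.8% for P2rx7-/- control, 22.5% to 41.2% for wt post-SE and 21.7% to 42.4% for P2rx7-/- post-SE. For P2rx7-/- post-SE it was 21.4% to 31.8% against wt post-SE and 24.8% to 35.6% against P2rx7-/- control. The same alternatives were run for the log2 difference of each of the 10 members in each of the 8 comparisons. Of these 80 differences 40 kept their sign under all alternatives and 40 changed it under at least 1, with 111 changes among 1600 values, of which 94 came with 1 sample left out. The cause was not tested. With 1 sample left out, the ranges of the differences that changed sign were as follows. For P2rx7-/- control against wt control, they were −0.56 to 0.0695 for hsa-miR-17, −0.39 to 0.25 for hsa-miR-20a, −0.96 to 0.59 for hsa-miR-20b, −0.12 to 0.60 for hsa-miR-92, −0.58 to 0.98 for mmu-miR-106a and −2.92 to 2.07 for rno-miR-20b. For wt post-SE against wt control, they were −1.37 to 0.37 for hsa-miR-20b, −0.17 to 0.15 for hsa-miR-92, −0.075 to 1.52 for mmu-miR-106a and −1.79 to 0.78 for rno-miR-20b. For P2rx7-/- post-SE against wt control, they were −0.66 to 0.085 for hsa-miR-17, −0.13 to 1.44 for hsa-miR-20b, −0.37 to 1.23 for mmu-miR-106a and −1.26 to 2.92 for rno-miR-20b. For P2rx7-/- post-SE against wt post-SE, they were −0.075 to 2.30 for hsa-miR-106b, −0.22 to 0.53 for hsa-miR-17, −0.074 to 0.21 for hsa-miR-18a, −0.12 to 0.33 for hsa-miR-20a, −0.35 to 0.043 for mmu-miR-93 and −0.99 to 3.21 for rno-miR-20b. For P2rx7-/- post-SE against P2rx7-/- control, they were −0.56 to 0.086 for hsa-miR-106b, −0.50 to 0.34 for hsa-miR-17, −0.55 to 0.21 for hsa-miR-18a, −0.18 to 0.31 for hsa-miR-19a, −0.53 to 0.13 for hsa-miR-20a, −0.20 to 0.20 for mmu-miR-93 and −1.66 to 3.92 for rno-miR-20b. For post-SE against control, averaged over genotypes, they were −0.27 to 0.62 for hsa-miR-20b and −0.97 to 1.82 for rno-miR-20b. For P2rx7-/- against wt, averaged over treatments, they were −0.16 to 1.02 for hsa-miR-106b, −0.19 to 0.19 for hsa-miR-17, −0.35 to 0.023 for hsa-miR-18a, −0.14 to 0.18 for hsa-miR-20a, −0.20 to 0.15 for hsa-miR-92, −0.44 to 0.34 for mmu-miR-106a and −0.81 to 1.79 for rno-miR-20b. For the interaction of genotype and treatment, they were −0.064 to 0.77 for hsa-miR-17, −0.14 to 0.51 for hsa-miR-20a, −1.27 to 0.28 for mmu-miR-106a and −1.39 to 4.21 for rno-miR-20b. With the median of the assays detected in all samples, values of changed sign were 0.055 for hsa-miR-20a (P2rx7-/- control against wt control) and 0.063 for hsa-miR-20b (P2rx7-/- control against wt control). With the snoRNA normalizer, values of changed sign were 0.0908 for hsa-miR-20a (P2rx7-/- control against wt control), 0.10 for hsa-miR-20b (P2rx7-/- control against wt control), 0.086 for mmu-miR-93 (P2rx7-/- post-SE against wt post-SE) and 0.052 for hsa-miR-18a (P2rx7-/- against wt, averaged over treatments). With a Ct below 26, values of changed sign were 0.014 for hsa-miR-20a (P2rx7-/- control against wt control), 0.0221 for hsa-miR-20b (P2rx7-/- control against wt control) and −0.014 for mmu-miR-93 (P2rx7-/- post-SE against P2rx7-/- control). With the deposited fold changes, values of changed sign were −0.0194 for mmu-miR-93 (P2rx7-/- post-SE against P2rx7-/- control), −0.0422 for hsa-miR-17 (P2rx7-/- against wt, averaged over treatments), −0.025 for hsa-miR-20a (P2rx7-/- against wt, averaged over treatments), −0.0671 for hsa-miR-92 (P2rx7-/- against wt, averaged over treatments) and −0.0130 for mmu-miR-106a (P2rx7-/- against wt, averaged over treatments). With the mean of all assays detected in the sample, values of changed sign were −0.023 for hsa-miR-17 (P2rx7-/- against wt, averaged over treatments), −0.0049 for hsa-miR-20a (P2rx7-/- against wt, averaged over treatments) and −0.047 for hsa-miR-92 (P2rx7-/- against wt, averaged over treatments). The hsa-miR-20b difference between P2rx7-/- control and wt control, close to 0, changed sign under 8 alternatives, and no direction was read from it. Single samples decided the sign of miR-106a in wt post-SE against wt control (wt control replicate 1) and of miR-106b in P2rx7-/- post-SE against wt post-SE (wt post-SE replicate 2). The difference of miR-19a in P2rx7-/- control against wt control stayed between −1.37 and −0.89, and its difference in P2rx7-/- against wt averaged over treatments between −0.95 and −0.67, under all 20 alternatives. Chosen after seeing the data, leaving out single samples gave −0.0345 to 0.59 for the genotype difference of miR-19b, negative without wt control replicate 1. The change in miR-17 minus miR-19a was −1.08 to −0.53 cycles and the SD between the miR-20b assays 3.05 to 3.68 cycles with 1 sample left out. The snoRNA normalizer moved the median of all assays in P2rx7-/- post-SE against wt post-SE from −0.01 to 0.22. The precision was limited by 3 pools per group, and values near a Ct of 28 by the limit itself.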
